A study of Mus musculus with 4 samples.

Results

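The mitotic and G2/M genes described here are 32 mouse genes whose products drive a cell from the end of DNA synthesis through chromosome segregation and cytokinesis. They were chosen by name, from a fixed list of symbols matched to the NCBI gene IDs in the deposited tables, and make up 32 of the 15935 genes listed in at least 1 library. All 32 were listed in each of the 4 libraries. The libraries are RNA-seq of bone marrow-derived macrophages (BMDM), primary cells grown from the marrow of adult mice for 5 days with M-CSF. The KO LPS library came from ezh2f/f lysmcre cells stimulated for 2 h with LPS, a bacterial cell wall component that activates macrophages. The WT LPS library came from wild-type cells given the same treatment, the KO NT library from non-treated ezh2f/f lysmcre cells and the WT NT library from non-treated wild-type cells. The wild-type mice are labelled C57BL/6. The labels state no LPS dose, no number of mice behind a library and no sex. In ezh2f/f lysmcre mice a floxed Ezh2, the gene of the H3K27 methyltransferase of Polycomb repressive complex 2, is cut by a Cre recombinase expressed from the lysozyme M gene in myeloid cells, so marrow cells that have not turned the gene on keep Ezh2. Each group is 1 library. No difference below has a replicate check, no test between groups was made, and every interval covers counting error only.

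Entry into mitosis is driven by Cdk1 bound to B-type or A-type cyclins and by the Aurora and Polo-like kinases. The spindle checkpoint holds the anaphase-promoting complex (APC/C) inactive until every kinetochore is attached, after which Cdc20 and Ube2c let the complex mark cyclin B and securin for degradation. Many of these genes are transcribed in G2 and M phase and silent in cells that have left the cycle, through the DREAM, MuvB, B-Myb and FoxM1 complexes. These act at a CHR element (cell cycle genes homology region) near the transcription start and at CCAAT boxes upstream of it, which bind NF-Y. Macrophages grown with M-CSF divide for some days and then slow, and LPS is known to hold back their proliferation.

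The promoters of 5 genes that act at the core of this program are shown because these elements can be read in them directly. The sequences are RefSeq windows on GRCm38.p6 (the mm10 build), given 5′ to 3′ on the gene's strand, from 150 bases before to 30 bases after the annotated start. Capitals mark CCAAT (or ATTGG, its reverse complement), TTTGAA as a CHR, and TTTCGCGC as an E2F element.
Ccnb1, chr13:100786457-100786636, minus strand: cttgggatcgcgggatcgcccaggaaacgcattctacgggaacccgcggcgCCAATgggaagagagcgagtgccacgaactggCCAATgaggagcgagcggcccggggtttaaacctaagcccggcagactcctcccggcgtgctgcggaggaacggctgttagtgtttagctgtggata
Ccnb2, chr9:70421525-70421704, minus strand: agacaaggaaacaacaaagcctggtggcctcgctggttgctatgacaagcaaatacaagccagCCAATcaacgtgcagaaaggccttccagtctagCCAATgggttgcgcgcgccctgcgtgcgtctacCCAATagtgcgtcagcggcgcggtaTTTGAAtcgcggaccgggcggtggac
Cdk1, chr10:69352883-69353062, minus strand: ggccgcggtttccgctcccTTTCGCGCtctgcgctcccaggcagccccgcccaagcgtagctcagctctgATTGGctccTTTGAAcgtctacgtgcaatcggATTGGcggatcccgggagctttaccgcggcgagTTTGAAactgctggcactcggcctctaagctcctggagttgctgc
Plk1, chr7:122159285-122159464, plus strand: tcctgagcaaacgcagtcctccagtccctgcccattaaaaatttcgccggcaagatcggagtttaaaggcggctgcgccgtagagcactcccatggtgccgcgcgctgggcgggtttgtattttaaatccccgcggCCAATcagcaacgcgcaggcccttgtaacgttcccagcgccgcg
Cdc20, chr4:118437314-118437493, minus strand: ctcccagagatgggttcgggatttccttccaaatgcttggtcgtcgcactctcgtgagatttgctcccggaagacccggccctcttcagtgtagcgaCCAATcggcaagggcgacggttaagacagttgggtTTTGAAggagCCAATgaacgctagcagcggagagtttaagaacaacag
In Ccnb2 a TTTGAA began at position 5 after the start, with 3 CCAAT boxes at -87, -54 and -21. In Cdc20 the TTTGAA lay at -18, between CCAAT boxes at -53 and -8. Cdk1 had 2 copies, at -71 and -15. The Plk1 copy began at position 31, just past the letters shown. Ccnb1 had CCAAT boxes at -99 and -67 and neither searched form of the CHR.

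Windows from 250 bases before to 50 after the start were given for 26 of the 32 members, as 28 windows, since Ect2 and Prc1 have 2 each. Ccna2, Aurkb, Kif20a, Tpx2, Stmn1 and Smc4 have no window. The motifs searched on both strands were TTTGAA and TTCGAA for the CHR, CCAAT, and, for E2F, TTT followed by CC, GG, GC or CG and then by CGC. These motifs do not contain each other. A CHR of either form was present in 23 of 28 member windows, or 82.1% (exact 95% binomial interval 63.1% to 93.9%), against 19.2% of all 32851 windows. CCAAT was present in 85.7% of member windows and 37.4% of all windows, and both elements together in 78.6% of member windows and 7.52% of all windows. By gene, 21 of 26 members had a CHR and 22 had a CCAAT. The members with no CHR match were Birc5, Ccnb1, Cenpe, Mad2l1 and Nusap1. In 19 genes a CHR lay within 50 bases of the start, and in Ncapd2 and Ckap2 only further upstream. Of all windows, 5.31% had a CHR within that distance. The E2F letters were present in 2 members, Cdk1 and Ncapd2, or 7.14% of windows, against 35.1% of the 37 windows of a DNA replication list and 2.26% of all windows. In that DNA replication list a CHR was present in 16.2% of windows, and in 62 windows of a second list of mitotic genes, none of them members, in 61.3%. A match describes these letters in this window and is neither a site nor a cause.

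**Figure D1:**
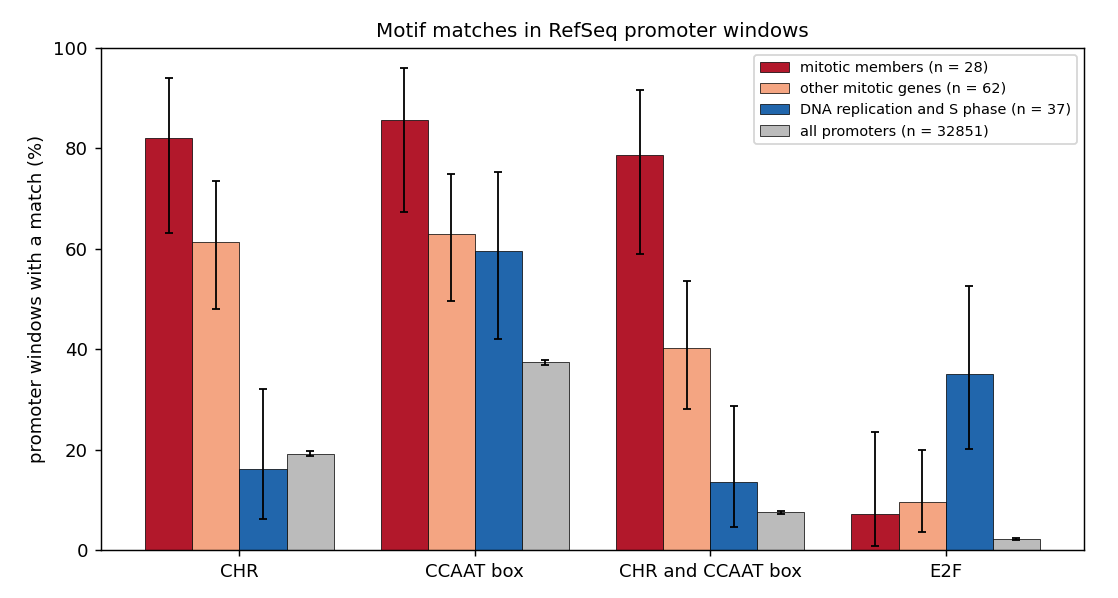
Share of RefSeq promoter windows (%, y axis) with a match to each motif (x axis) for the 32 mitotic genes (28 windows), the other mitotic genes, DNA replication genes and all promoters; bars are shares and lines exact 95% binomial intervals. The CHR and CCAAT bars of the mitotic genes, at 82.1% and 85.7%, are the tallest of their groups, and their E2F bar, at 7.14%, is below that of the DNA replication genes.

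The libraries held 5237782 (KO LPS), 5635004 (WT LPS), 5668826 (KO NT) and 5678451 (WT NT) expected counts. Ezh2 was listed at 1.29 FPKM (fragments per kilobase, scaled to library depth) in KO LPS against 2.52 in WT LPS, and at 2.06 in KO NT against 2.84 in WT NT. The KO over WT ratio of FPKM was 0.512 (95% interval 0.275 to 0.919) with LPS and 0.725 (0.442 to 1.18) without, so the non-treated pair did not separate on this transcript beyond counting error. The level covers the whole transcript and is no measure of the cut exons. All 20 markers of a macrophage list were present in each library, with summed levels between 17568 and 21512 FPKM. Markers of other cells were lower, and some lists differed between the genotypes. A 20-gene list of neutrophil and granulocyte precursor markers summed to 676 FPKM in KO LPS against 489 in WT LPS, and 756 in KO NT against 448 in WT NT, and Ly6g had no value in KO NT. S100a8 and S100a9 carried most of that sum in each library. In KO NT 16 of the 20 were higher than in WT NT (51.7% of all genes), and Mpo, Prtn3, Cebpe and Ly6g were lower. With LPS 15 were higher in KO (59.3% of all genes), and Ly6g, Cebpe, Fcnb, Cd177 and Ms4a3 were lower. A 15-gene fibroblast list summed to 6.14 FPKM in KO LPS against 13.0 in WT LPS, and 6.88 in KO NT against 13.1 in WT NT, and 8 dendritic cell markers to 6.54 FPKM in KO LPS against 5.62 in WT LPS, and 5.89 in KO NT against 3.62 in WT NT. The interval of the ratio of summed dendritic counts held 1 with LPS (1.07, 0.832 to 1.39) and not without (1.54, 1.14 to 2.11). Of 10 blood progenitor markers Cd48, which many white blood cells express, stood at 131 to 154 FPKM and carried nearly all of the summed level. Sox4 came next, at 4.44 FPKM in KO NT against 2.07 in WT NT and with no value in either LPS library, and the other 8 stayed at 1.14 FPKM or less. In lists for B cells, T and NK cells and erythroid cells the summed level of the genes with a value never passed 3.89 FPKM in any library, and Pax5, the transcription factor of B cell identity, had a value in WT NT alone. The summed counts of these scarce lists also differed in single pairs. B cell markers had 31 counts in KO NT against 14 in WT NT, a ratio of 2.22 (1.15 to 4.51), and erythroid markers 28 in KO LPS against 10 in WT LPS, a ratio of 3.01 (1.42 to 6.95). Every genotype difference below stands beside those differences in neutrophil, fibroblast, dendritic, B cell and erythroid markers, and their part in it was not tested. In bulk RNA, fewer dividing cells and less of a transcript in each cell cannot be told apart.

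The mitotic genes were expressed at low levels. Their median was 1.48 FPKM in KO LPS against 0.905 in WT LPS, and 2.69 in KO NT against 1.58 in WT NT, while the median of all listed genes lay between 4.42 in WT LPS and 6.71 in KO NT. A level of 1 FPKM was reached by 22 members in KO LPS against 15 in WT LPS, and by 27 in KO NT against 22 in WT NT. Under 10 counts stood behind 7 members in KO LPS against 9 in WT LPS, and 3 in KO NT against 6 in WT NT, so many members carry wide intervals. KO NT held the highest level of the 4 libraries for 25 of 32 members and WT LPS the lowest for 22. These counts were not made over all genes. Lower FPKM with LPS than without was seen for 71.5% of all genes in KO and 72.2% in WT. The members at 5 FPKM or more in some library were Hmgb2, Stmn1, Smc4, Cenpa, Smc2, Mad2l1 and Kif23, and the scarcest was Cenpf, at 0.05 to 0.19 FPKM.

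**Figure D2:**
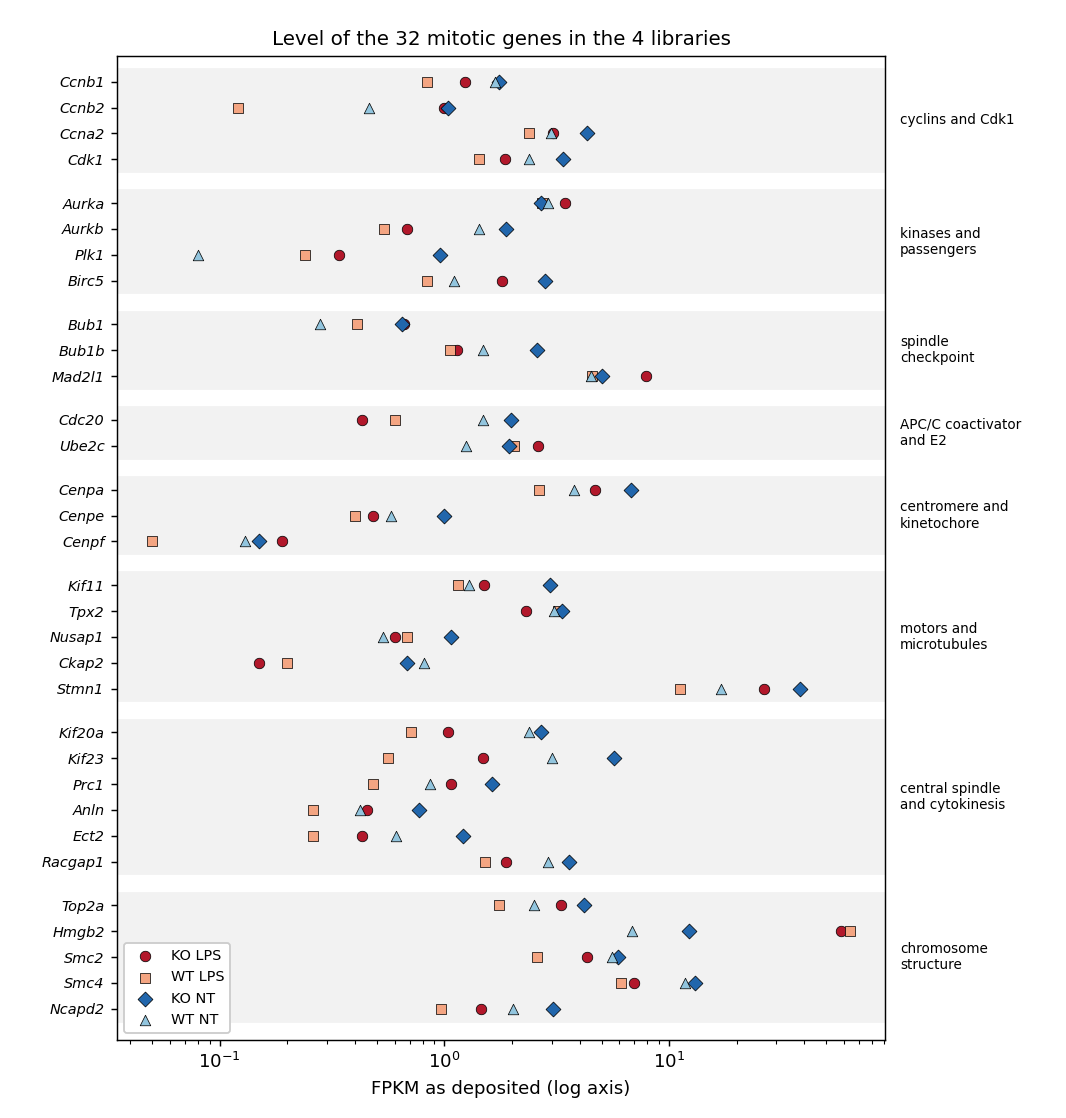
Level of each mitotic gene (rows, grouped by role) in FPKM on a log axis, with 1 point per library for KO LPS, WT LPS, KO NT and WT NT. KO NT is the rightmost point for 25 of 32 genes, a count not made over all genes, and the 2 LPS libraries stand far to the right only for Hmgb2, at 58.2 and 63.7 FPKM.

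In non-treated cells the mitotic genes stood higher in ezh2f/f lysmcre than in wild-type macrophages as a group, by modest amounts. The summed count of the 32 genes was 2104 in KO NT, or 371 CPM (the count scaled to a library total of 1000000), against 1457, or 257 CPM, in WT NT. The ratio of the summed levels was 1.45 (95% interval 1.35 to 1.55). FPKM was higher in KO NT for 30 of 32 members, where 51.7% of all 15178 genes listed in either library were higher, and the exceptions were Aurka and Ckap2. The interval of the FPKM ratio lay above 1 for 12 members (10.6% of all genes) and below 1 for 0 (8.74% of all genes). The median log2 difference, on a log2(FPKM + 1) scale that understates the change of low genes, was 0.38 over the 32 members and 0.01 over all genes. Of 27 members that reached 1 FPKM in either library, 1 was at least 2-fold higher on that scale (0.928% of genes so filtered) and 0 were at least 2-fold lower (0.883%).

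Stmn1, which encodes the microtubule-destabilising protein stathmin (NCBI gene 16765, chromosome 4, 134468320 to 134473843 on mm10), was that gene. It stood at 38.1 FPKM in KO NT and 17.1 in WT NT, from 227 and 102 counts, a ratio of 2.23 (1.76 to 2.84). The other 11 members whose interval lay above 1 belonged to 6 of 8 role groups, all but the cyclins with Cdk1 and the APC/C pair. Kif11, the motor that pushes spindle poles apart, had 2.94 FPKM in KO NT against 1.29 in WT NT, a ratio of 2.28 (1.52 to 3.48). Kif23, the motor of the central spindle, had 5.71 FPKM in KO NT against 3.0 in WT NT, a ratio of 1.90 (1.38 to 2.66). Hmgb2, a chromatin-bending HMG-box protein, had 12.3 FPKM in KO NT against 6.85 in WT NT (ratio 1.79, 1.40 to 2.30). Cenpa, the centromeric histone H3 variant, had 6.76 FPKM in KO NT against 3.78 in WT NT (ratio 1.79, 1.13 to 2.88). Top2a, the topoisomerase that untangles sister chromatids, had 4.19 FPKM in KO NT against 2.51 in WT NT, a ratio of 1.67 (1.24 to 2.25). These 6 members were each higher in KO NT by an amount beyond counting error, from libraries of nearly equal depth.

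Smaller counts stood behind the rest. The checkpoint kinase gene Bub1b had 54 counts in KO NT against 31 in WT NT (FPKM ratio 1.74, 1.10 to 2.81). The kinetochore motor gene Cenpe had 45 counts in KO NT against 26 in WT NT (ratio 1.72, 1.04 to 2.91), and the condensin subunit gene Ncapd2 79 in KO NT against 52 in WT NT (1.52, 1.06 to 2.20). Ect2, whose product activates RhoA at the cleavage furrow, had 28 counts in KO NT against 14 in WT NT (1.98, 1.01 to 4.08). Plk1, the Polo-like kinase gene, had 12 counts in KO NT against 1 in WT NT, for which the ratio was 12.0 (1.78 to 513). Birc5, which encodes the passenger protein survivin, had 22.1 expected counts in KO NT against 13.4 in WT NT. Its FPKM ratio of 2.55 (1.26 to 5.63) exceeds its ratio of CPM, 1.66, because the deposited gene length was 1401 bases in KO NT and 2130 bases in WT NT. That made Birc5 the only member whose length differed by over 5% between libraries. On CPM, which leaves length out, its interval would hold 1.

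The cyclins and Cdk1 were listed higher in KO NT too, each with an interval that held 1. Ccna2 had 4.29 FPKM in KO NT against 2.98 in WT NT (ratio 1.44, 0.982 to 2.13) and Cdk1 3.38 in KO NT against 2.39 in WT NT (1.41, 0.921 to 2.19). Ccnb1 had 1.75 FPKM in KO NT against 1.67 in WT NT (1.048, 0.558 to 1.97), and Ccnb2 1.04 in KO NT against 0.46 in WT NT (2.26, 0.631 to 10.05). Summed over Ccnb1, Ccnb2, Ccna2 and Cdk1, 156 counts in KO NT stood against 113 in WT NT, a ratio of 1.38 (1.08 to 1.78). Of the other role groups, the ratio of summed counts was 1.80 (1.53 to 2.12) for spindle motors and microtubule proteins, 1.66 (1.21 to 2.30) for centromere and kinetochore genes, 1.54 (1.28 to 1.85) for central spindle and cytokinesis genes, 1.45 (1.09 to 1.95) for spindle checkpoint genes and 1.30 (1.17 to 1.43) for chromosome structure genes. The interval held 1 for the mitotic kinases and the passenger complex, at 1.37 (0.98 to 1.95), and for Cdc20 with Ube2c, at 1.40 (0.792 to 2.63). Smc2 and Smc4, the core condensin ATPases, were close to level despite high counts, with ratios of 1.07 (0.867 to 1.32) and 1.11 (0.938 to 1.31).

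**Figure D3:**
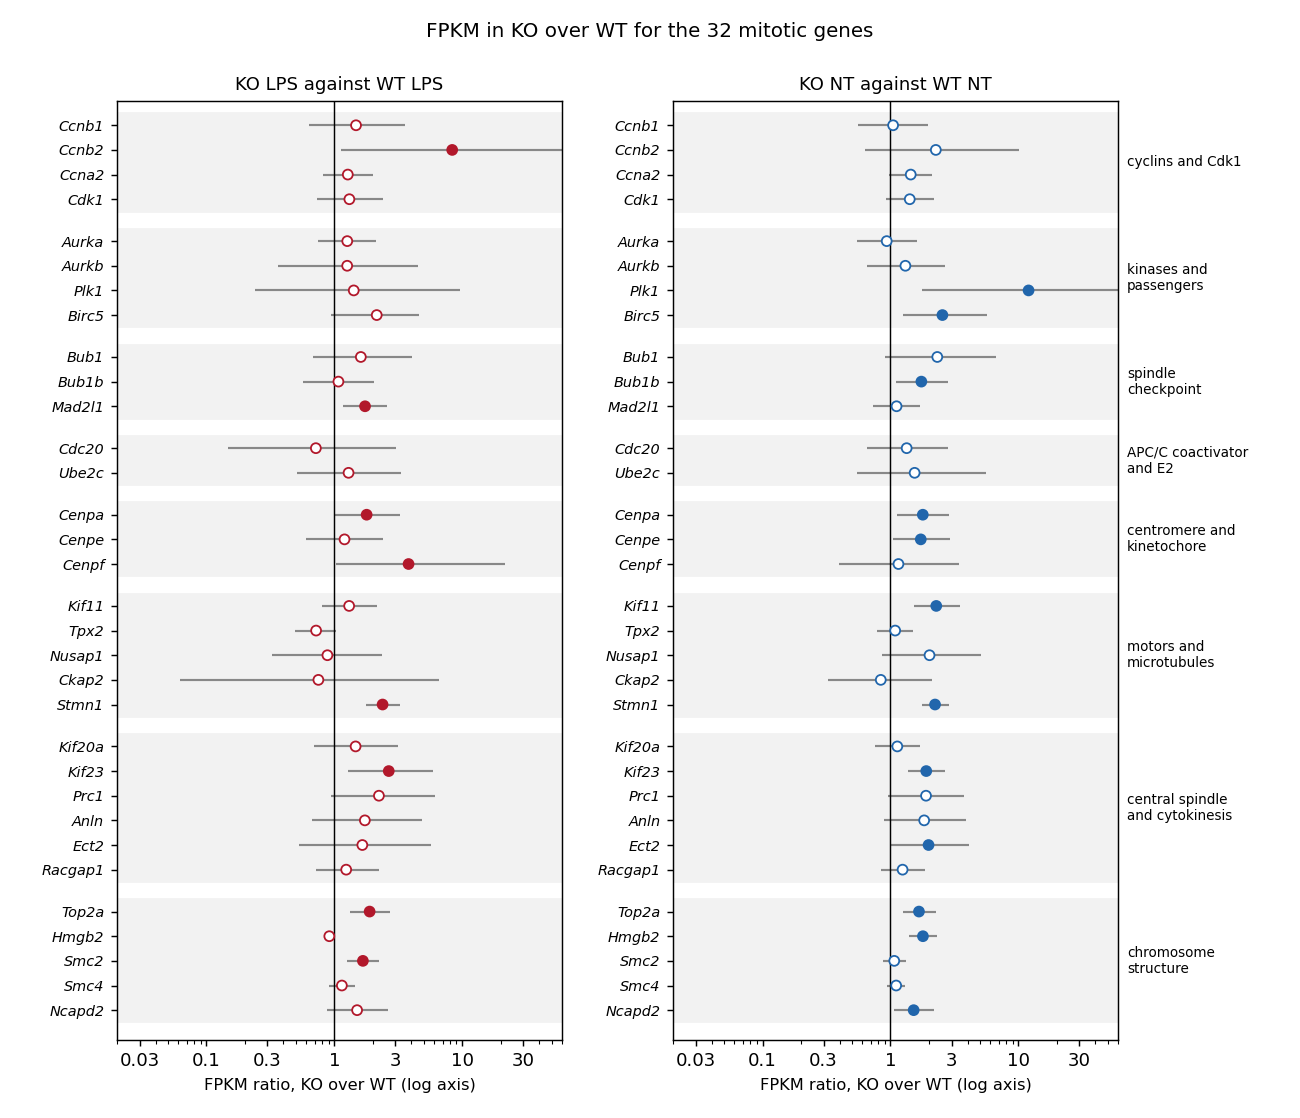
Ratio of FPKM in KO over WT (x axis, log) for each mitotic gene (rows) with LPS (left) and without (right); points are ratios, lines exact 95% counting intervals cut at the panel edge, and filled points have intervals that leave out 1. Without LPS 30 of 32 points lie right of 1 and 12 are filled; with LPS 27 lie right of 1 and 8 are filled.

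With LPS the same direction was seen in a second pair of libraries, and the labels do not say whether these came from the same mice or cultures as the first. Without Hmgb2, the summed count was 1114 in KO LPS and 822 in WT LPS, a ratio of CPM of 1.46 (1.33 to 1.60). Hmgb2 alone held 823 expected counts in KO LPS and 970 in WT LPS, and with it the ratio was 1.16 (1.09 to 1.24). FPKM was higher in KO LPS for 27 of 32 members, beside 59.3% of all 14852 genes listed. Cdc20, Tpx2, Ckap2, Nusap1 and Hmgb2 were lower, each with an interval that held 1. Intervals lay above 1 for 8 members (15.4% of all genes) and below 1 for 0 (6.89%). The median log2 difference was 0.24 over the members and 0.06 over all genes. Of 22 members that reached 1 FPKM, 1 was at least 2-fold higher (1.45% of genes) and 0 at least 2-fold lower (1.12%).

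Stmn1 was again the member past 2-fold, at 26.5 FPKM in KO LPS and 11.1 in WT LPS, from 146 and 66 counts, a ratio of 2.38 (1.77 to 3.23). Kif23 had 1.49 FPKM in KO LPS against 0.56 in WT LPS (2.66, 1.28 to 5.94). Top2a had 3.30 FPKM in KO LPS against 1.75 in WT LPS (1.89, 1.33 to 2.70), and Cenpa 4.70 in KO LPS against 2.63 in WT LPS (1.79, 1.01 to 3.24). Mad2l1, the checkpoint protein that binds Cdc20 (chromosome 6, 66535221 to 66541107), had 7.90 FPKM in KO LPS against 4.55 in WT LPS, a ratio of 1.74 (1.18 to 2.59). Smc2 had 4.31 FPKM in KO LPS against 2.58 in WT LPS, a ratio of 1.67 (1.25 to 2.24). The last pair rest on few counts. Ccnb2 had 8 counts in KO LPS against 1 in WT LPS (ratio 8.33, 1.12 to 370), and the kinetochore gene Cenpf 11.1 in KO LPS against 3.09 in WT LPS (3.80, 1.03 to 21.7).

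The non-treated and LPS pairs share no library, so the genotype difference can be set side by side. FPKM was higher in KO in both pairs for 26 of 32 members, or 81.3%, beside 37.1% of the 12516 genes listed in all 4 libraries. Both intervals lay above 1 for 4 members, Top2a, Cenpa, Stmn1 and Kif23, or 12.5%, beside 6.28% of all genes. For Cenpa with LPS the margin was narrow (1.01 to 3.24). On CPM, which leaves out the deposited gene length, that interval would hold 1. Ckap2 was lower in KO in both pairs, at 0.15 FPKM in KO LPS against 0.20 in WT LPS and 0.68 in KO NT against 0.81 in WT NT, from 12 counts or fewer.

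After LPS most mitotic genes were lower than in non-treated cells in both genotypes, as were most other genes. The levels of the median gene moved by -0.43 log2 between KO LPS and KO NT and by -0.48 between WT LPS and WT NT, as ratios of 0.744 and 0.718. Without Hmgb2, the summed level was 213 CPM in KO LPS against 338 in KO NT, a ratio of 0.629 (0.584 to 0.678), and 146 in WT LPS against 238 in WT NT, a ratio of 0.613 (0.561 to 0.669). Relative to the median gene these ratios were 0.846 and 0.854, and both intervals lay below the ratio of the median gene. With Hmgb2 included the ratios were 0.996 in KO and 1.24 in WT, so the direction of the summed level turns on that gene.

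In KO cells FPKM was lower with LPS for 26 of 32 members (71.5% of all genes). Relative to the median gene it was lower for 24 members, beside 7953 of all 15129 genes. Intervals lay below 1 for 14 (43% of all genes) and above 1 for 2 (11.1%). Of 27 members that reached 1 FPKM, 2 were at least 2-fold lower (15.1% of genes), Cdc20 and Kif23, and 1 was at least 2-fold higher (6.61%), Hmgb2. In WT cells FPKM was lower with LPS for 25 members (72.2%). Relative to the median gene it was lower for 21 members, beside 7916 of all 15105 genes. Intervals lay below 1 for 8 (45.4%) and above 1 for 1 (10.2%). Of 22 members that reached 1 FPKM, Kif23 was at least 2-fold lower (17.2% of genes) and Hmgb2 at least 2-fold higher (6.41%). The members with intervals below 1 were thus near the share of all genes in KO and under it in WT. Whether an interval leaves out 1 depends on counts, and the median member had 16 in WT LPS and 31 in WT NT. This share is therefore no measure of how far the members moved.

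The genes of the central spindle and cytokinesis had the lowest summed LPS to NT ratio of the 8 role groups. Beside 68.5% of the 12516 genes listed in all 4 libraries, all 6 were lower with LPS in both genotypes. Their summed level was 21.7 CPM in KO LPS against 53.9 in KO NT, a ratio of 0.402 (0.322 to 0.502), and 13.0 in WT LPS against 35.0 in WT NT, a ratio of 0.372 (0.279 to 0.486). Relative to the median gene the ratios were 0.541 and 0.518. Kif23 (chromosome 9, 61917277 to 61946810) had 1.49 FPKM in KO LPS against 5.71 in KO NT (0.261, 0.165 to 0.40) and 0.56 in WT LPS against 3.0 in WT NT (0.187, 0.088 to 0.359). Kif20a, a second central spindle motor, had 1.04 FPKM in KO LPS against 2.68 in KO NT (0.388, 0.217 to 0.666) and 0.71 in WT LPS against 2.37 in WT NT (0.30, 0.153 to 0.552). Racgap1, the partner of Kif23 in centralspindlin, had 1.88 FPKM in KO LPS against 3.58 in KO NT (0.525, 0.326 to 0.832) and 1.52 in WT LPS against 2.88 in WT NT (0.528, 0.313 to 0.858). Ect2, Prc1 and Anln were lower too, with intervals that held 1 in WT for each and in KO for Prc1 and Anln.

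Condensin genes were also lower with LPS, and Smc2 in KO was close to the shift of the median gene. Smc2 had 4.31 FPKM in KO LPS against 5.94 in KO NT (0.726, 0.574 to 0.914) and 2.58 in WT LPS against 5.55 in WT NT (0.465, 0.352 to 0.609). Smc4 had 6.98 FPKM in KO LPS against 13.0 in KO NT (0.538, 0.439 to 0.656) and 6.10 in WT LPS against 11.7 in WT NT (0.520, 0.422 to 0.640). Ncapd2 had ratios of 0.479 (0.312 to 0.721) in KO and 0.483 (0.287 to 0.792) in WT. Top2a was close to the shift of the median gene, with 0.788 (0.594 to 1.04) in KO and 0.697 (0.480 to 1.01) in WT. Cdc20, the APC/C coactivator, had 0.43 FPKM in KO LPS against 1.98 in KO NT, from 4 and 20 counts (0.217, 0.054 to 0.648), and 0.60 in WT LPS against 1.48 in WT NT, from 6 and 15 counts (0.405, 0.129 to 1.11). Stmn1 moved with the median gene, at 0.696 (0.561 to 0.861) in KO and 0.652 (0.471 to 0.897) in WT.

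The spindle checkpoint group stood near its level in non-treated cells. Its summed count was 108 in KO LPS against 119 in KO NT and 76 in WT LPS against 82 in WT NT, ratios of 0.982 (0.750 to 1.29) and 0.934 (0.674 to 1.29), which relative to the median gene are 1.32 and 1.30. Mad2l1 had 7.90 FPKM in KO LPS against 5.03 in KO NT, a ratio of 1.57 (1.08 to 2.31), and 4.55 in WT LPS against 4.51 in WT NT, a ratio of 1.01 (0.649 to 1.57). Within the same group Bub1b had 1.14 FPKM in KO LPS against 2.58 in KO NT (0.442, 0.256 to 0.738) and 1.06 in WT LPS against 1.48 in WT NT (0.716, 0.395 to 1.28). Bub1, the remaining gene of the group, had 0.66 FPKM in KO LPS against 0.65 in KO NT, from 15 and 16 counts. In WT it had 0.41 with LPS against 0.28 without, from 10 and 7 counts (1.46, 0.503 to 4.53). Aurka, the kinase of spindle poles, had 3.43 FPKM in KO LPS against 2.70 in KO NT (1.27, 0.751 to 2.16) and 2.72 in WT LPS against 2.89 in WT NT (0.941, 0.550 to 1.61), both above the shift of the median gene. Aurkb, the kinase of the passenger complex, had 0.68 in KO LPS against 1.87 in KO NT (0.364, 0.131 to 0.888) and 0.54 in WT LPS against 1.43 in WT NT (0.378, 0.121 to 1.02).

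**Figure D4:**
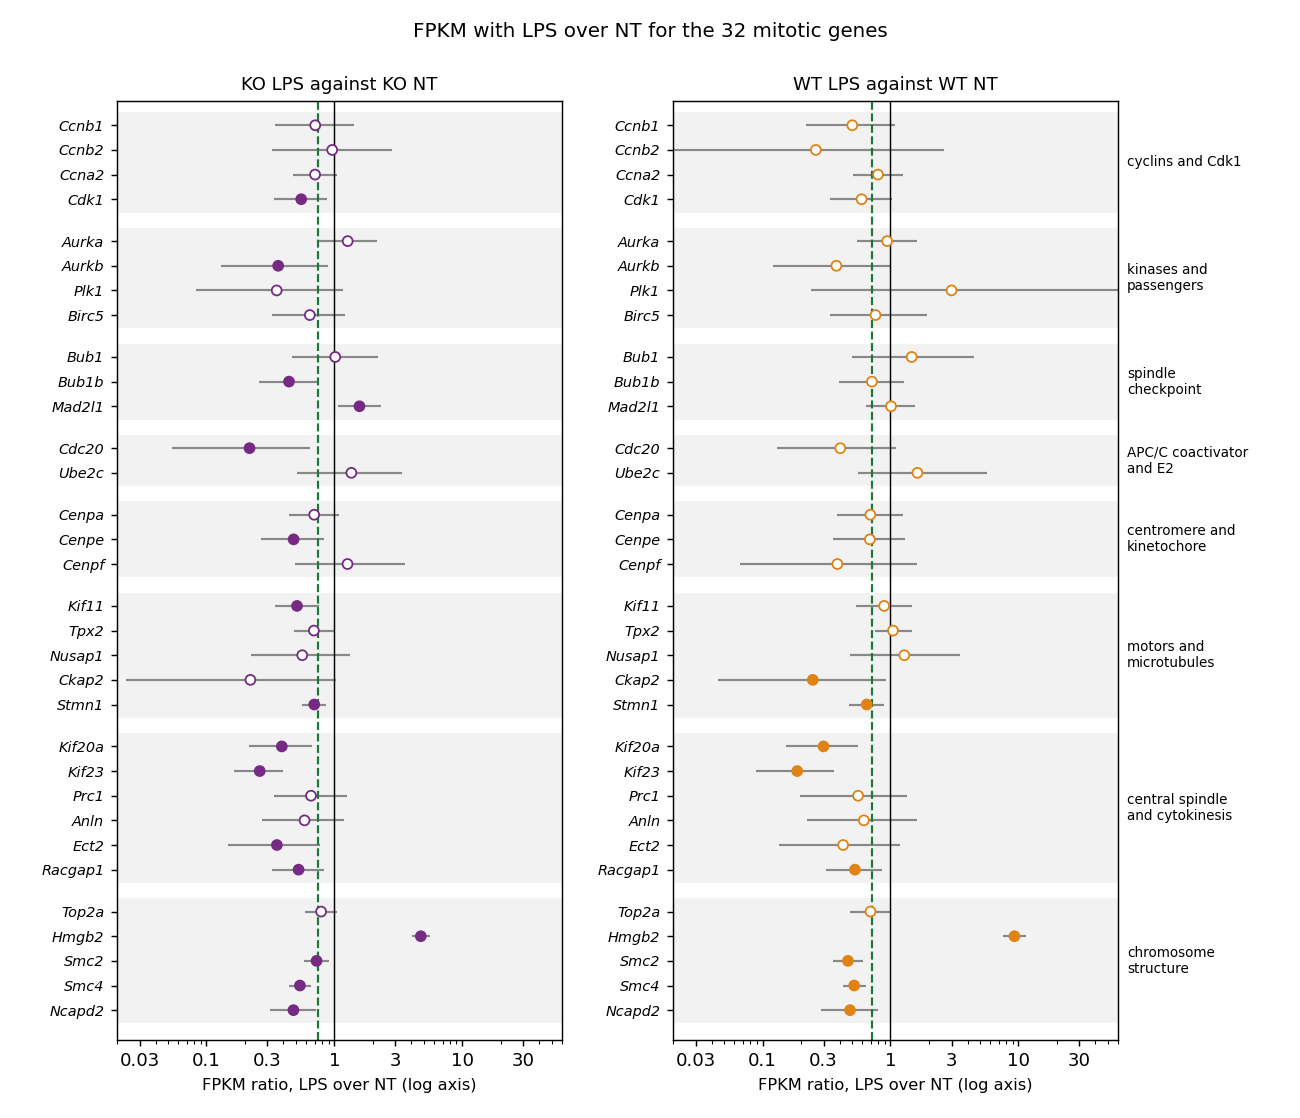
Ratio of FPKM with LPS over NT (x axis, log) for each mitotic gene (rows) in KO (left) and WT (right); points are ratios, lines exact 95% counting intervals cut at the panel edge, filled points have intervals that leave out 1, and the dashed line is the shift of the median gene (0.744 and 0.718). Hmgb2 has the highest ratio in each panel, at 4.74 in KO and 9.31 in WT, ahead of Mad2l1 in KO, at 1.57, and of Plk1 in WT, at 3.0 from 3 counts against 1, and Kif23 lies left of the dashed line in both.

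Hmgb2 (NCBI gene 97165, chromosome 8, 57511843 to 57515999) was the member with the highest LPS to NT ratio in both genotypes. Its protein bends DNA and associates with chromatin in dividing cells. It had 58.2 FPKM in KO LPS against 12.3 in KO NT, from 823 and 188 expected counts, a ratio of 4.74 (4.04 to 5.58). In WT cells it had 63.7 FPKM with LPS against 6.85 without, from 970 and 105 expected counts, a ratio of 9.31 (7.60 to 11.5). The LPS libraries were level, at 0.913 (0.831 to 1.003) for KO over WT, and the non-treated libraries differed, at 1.79. The deposited length of Hmgb2 was 2692 bases in all 4 libraries, and 3 of its 4 expected counts are not whole, which RSEM gives where a read matches more than 1 place. Mki67, the proliferation marker Ki-67, also stood far higher with LPS, at 64.7 FPKM in KO LPS against 63.2 in WT LPS, and 3.10 in KO NT against 1.79 in WT NT.

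The difference between the LPS responses of the 2 genotypes was computed as a ratio of ratios, an alternative added after the values were seen. On the log2(FPKM + 1) scale 0 of 27 members differed by at least 2-fold upward in KO (1.9% of all genes) and 0 downward (1.42%). The exact interval of the ratio of ratios, taken from counts, lay above 1 for 1 member (9.96% of 12516 genes) and below 1 for 1 (4.18%). These were Smc2, at 1.58 (1.10 to 2.28), which was lower with LPS by less in KO than in WT, and Hmgb2, at 0.509 (0.390 to 0.662).

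**Figure D5:**
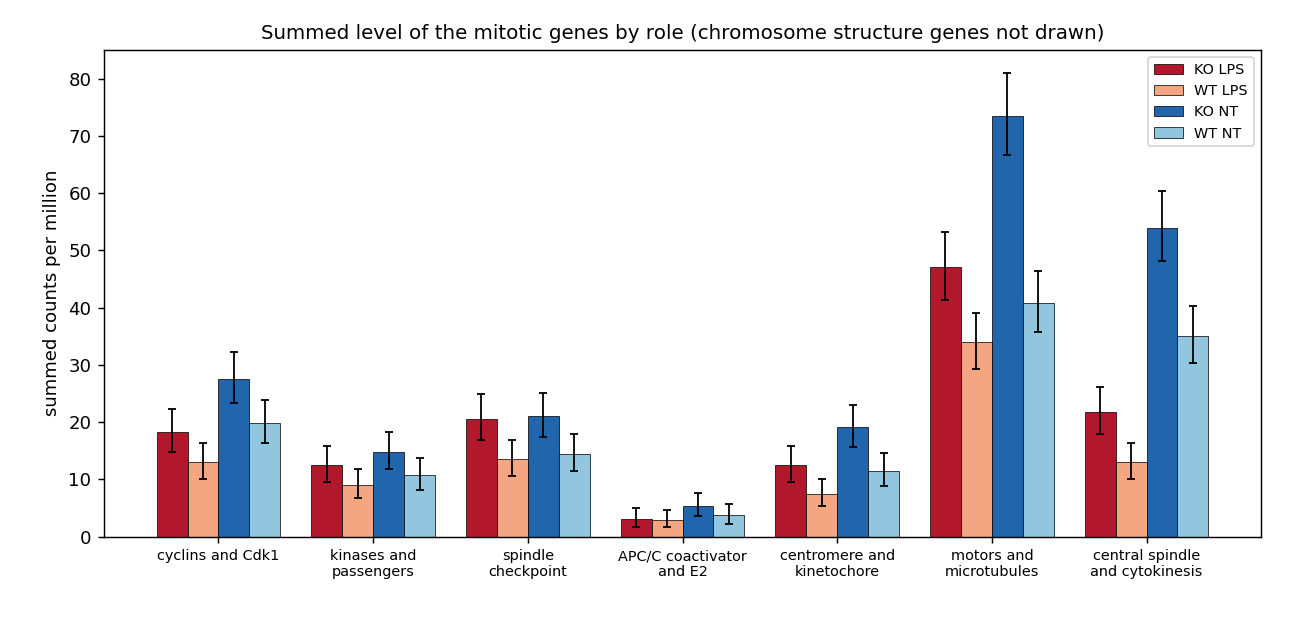
Summed level in CPM (y axis) of each role group except chromosome structure (x axis) in the 4 libraries; lines are exact 95% Poisson intervals of the summed count. KO stands above WT in each group. With LPS, however, 3 of the 5 motor and microtubule genes and 1 of the 2 APC/C genes were lower in KO. In that motor and microtubule group Stmn1 held 146 of 246 counts in KO LPS and 66 of 191 in WT LPS. The LPS bars of the central spindle and cytokinesis group, at 21.7 and 13.0, are well below its NT bars, at 53.9 and 35.0.

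Neighbouring parts of the cell cycle were read from lists of other genes. Of 40 DNA replication and S phase genes, 34 were higher in KO LPS than in WT LPS and 38 in KO NT than in WT NT, beside 59.3% and 51.7% of all genes. Intervals lay above 1 for 16 and 25 of them (15.4% and 10.6% of all genes) and below 1 for 1 in each pair. That gene was Pcna, named outside the rule for list genes, which has the most counts of the list in each library. It had 402 FPKM in KO LPS against 494 in WT LPS, and 467 in KO NT against 491 in WT NT. Tk1, thymidine kinase, had 6.93 FPKM in KO NT against 1.71 in WT NT, a ratio of 4.05 (2.18 to 8.10), and the helicase subunit genes Mcm5 and Mcm7 had ratios of 2.56 (2.17 to 3.01) and 2.31 (1.86 to 2.89). Of 62 further mitotic genes, 47 were higher in KO LPS and 51 in KO NT than in the matching WT library. Their intervals lay above 1 for 9 with LPS, or 14.5%, which is under the 15.4% of all genes, and for 13 without, or 21%, beside 10.6% of all genes. Intervals lay below 1 for 2 with LPS and 0 without. Ncaph, another condensin subunit gene, had 3.91 FPKM in KO NT against 1.82 in WT NT (2.15, 1.35 to 3.50). Of 23 transcription factors of the cycle, 21 were higher in KO LPS and 18 in KO NT, with intervals above 1 for 5 and 8 and below 1 for 0 in both pairs. The lower ones were E2f6 and Lin9 with LPS, and without LPS E2f4 and Lin52, which belong to DREAM, and the NF-Y genes Nfya, Nfyb and Nfyc. Nfya had 32.2 FPKM in KO NT against 34.2 in WT NT, and E2f4 20.3 in KO NT against 24.1 in WT NT. Outside the rule by which list genes are named, and picked after their values were seen, Mybl2, the gene of B-Myb, had 0.67 FPKM in KO LPS against 0.14 in WT LPS, and 1.99 in KO NT against 0.61 in WT NT, and Foxm1 had 0.95 FPKM in KO LPS against 0.56 in WT LPS, and 1.47 in KO NT against 0.88 in WT NT. E2f1 had 22.9 FPKM in KO NT against 14.5 in WT NT (1.58, 1.33 to 1.88).

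After LPS, 38 of the 40 DNA replication genes were lower in KO and 36 in WT, of which part turned higher relative to the median gene, since 7 and 14 of the 40 stood above its shift. Of all genes 71.5% were lower in KO and 72.2% in WT. Above the shift stood 7176 of all 15129 genes in KO and 7189 of all 15105 in WT. Cdt1, the replication licensing factor, was at 13.4 FPKM in KO LPS against 39.0 in KO NT (0.342, 0.284 to 0.410) and 11.5 in WT LPS against 31.2 in WT NT (0.367, 0.301 to 0.445). Of the 62 further mitotic genes 50 were lower in KO, or 80.6%, and 41 in WT, or 66.1%, which is under the share of all genes. Of these 62 genes 20 and 28 stood above the shift. Of the 23 transcription factors 20 were lower in KO and 18 in WT, with 7 above the shift in each. Wee1, the kinase that holds Cdk1 inactive, had 1.22 FPKM in KO LPS against 4.36 in KO NT (0.280, 0.167 to 0.451) and 1.19 in WT LPS against 4.40 in WT NT (0.270, 0.163 to 0.433). Of 9 G1 cyclins and kinases 7 (77.8%) were lower with LPS in each genotype, near the share of all genes. In KO LPS 9 were higher than in WT LPS, beside 59.3% of all genes. In KO NT 5 (55.6%) were higher than in WT NT, near the 51.7% of all genes. Ccnd2, a D-type cyclin gene, had 9.40 FPKM in KO LPS against 0.64 in KO NT (14.7, 9.43 to 24.1) and 8.94 in WT LPS against 0.76 in WT NT (11.8, 7.81 to 18.5). Ccnd1 had 23.5 FPKM in KO LPS against 45.4 in KO NT (0.518, 0.463 to 0.579) and 17.8 in WT LPS against 39.2 in WT NT (0.454, 0.402 to 0.513). The repressor E2f8 stood higher with LPS, at 12.8 FPKM in KO LPS against 3.71 in KO NT (3.45, 2.65 to 4.47) and 8.57 in WT LPS against 2.03 in WT NT (4.22, 3.01 to 6.03).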

How the data were processed

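RNA-seq was measured in 4 libraries, 1 per group. Per the submitters' processing notes, reads were handled with Bowtie and RSEM and the mm10 build was used; their versions, the annotation and the strand setting were not given in the sources used here. Per the file headers, the deposited tables give each gene's NCBI gene ID, length, expected count and FPKM. The expected counts deposited by the authors are estimated counts, which need not be whole (8 members have fractional values), and were rounded for intervals. The FPKM deposited by the authors is per kilobase of the listed length, scaled to library depth. The tables hold no row at 0, so a gene listed in some libraries was taken as 0 in the others, and a gene listed in none was left out. Of 15935 gene IDs, 15897 matched the RefSeq gene table on GRCm38.p6 and 38 did not.

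From these, FPKM ratios were computed with exact 95% binomial (Clopper-Pearson) intervals, sums of counts with exact Poisson intervals, and log2 differences with a pseudocount of 1 FPKM. A gene counted as past the size rule at 2-fold on that scale, among genes at 1 FPKM or more in either library. These 2 measures were checked on simulated counts, only among genes with at least 50 counts expected. The median member had fewer in each library, so the check does not reach the low-count members. With 1 library per group there is no test, and p-values over genes or reads were not computed. The median gene's shift came from 9391 genes. The members, role groups and gene lists were chosen with earlier results of these data known. All members are named. From other lists, up to 3 genes per comparison with the largest change among those with at least 50 counts, plus Ezh2 and Mki67, were named. Others outside that rule, such as Pcna, Mybl2 and Foxm1, were named after their values were seen. Alternatives were other pseudocounts, filters, scalings, size rules and subsets of members. Python 3.11.15, numpy 2.4.6, pandas 2.3.3 and scipy 1.17.1 were used.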

Additional observations from a re-analysis of the deposited data

Results flagged for a closer look

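The LPS response of 2 members differed between the genotypes beyond counting error, by an exact conditional interval of the ratio of the KO response to the WT response, with no replicate to set it against. Here and below, that ratio was estimated from counts scaled to library totals. The responses beside it are FPKM ratios, so their quotient can differ from it. Hmgb2 had a ratio of 0.509 (95% interval 0.390 to 0.662), from responses of 4.74 in KO and 9.31 in WT. Smc2 had a ratio of 1.58 (1.10 to 2.28), from responses of 0.726 in KO and 0.465 in WT.

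A further 6 members went opposite ways in the 2 genotypes with LPS, or in KO against WT with and without LPS, in single libraries. For each of these 6 the interval of the ratio of responses held 1, and whether the responses differ was not tested with replicates. For LPS over NT, Aurka stood at 1.27 in KO and 0.941 in WT, with a ratio of responses of 1.30 (0.606 to 2.80). Plk1 stood at 0.354 and 3.0, with a ratio of 0.136 (0.002 to 2.23) that rests on 1 count in WT NT. Cenpf stood at 1.27 and 0.385, with a ratio of 3.37 (0.579 to 25.7). Tpx2 stood at 0.692 and 1.046, with a ratio of 0.626 (0.378 to 1.03). Nusap1 stood at 0.561 and 1.28, with a ratio of 0.448 (0.113 to 1.68). Cdc20 was higher in KO without LPS, at 1.34, and lower with LPS, at 0.717, with a ratio of responses of 0.545 (0.095 to 2.78).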

How the results depend on the processing

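The share of members higher in KO kept its direction under each scaling and subset tried. Without members under 50 counts it was 100% in the non-treated pair. In the LPS pair it was 71.4%, against 84.4% with all members and 59.3% of all genes. That subset of the LPS pair held only Top2a, Mad2l1, Tpx2, Stmn1, Hmgb2, Smc2 and Smc4, of which Tpx2 and Hmgb2 were lower in KO. The size of the median log2 difference moved. For KO NT against WT NT it was 0.41 as reported for tested members, 0.59 with a pseudocount of 0.1, 0.15 with a pseudocount of 5, 0.70 with a filter of 5 FPKM and 0.55 on CPM. For KO LPS against WT LPS it was 0.27, and 0.50 with a pseudocount of 0.1, 0.12 with a pseudocount of 5, 0.42 with a filter of 5 FPKM and 0.57 without members under 50 counts. For WT LPS against WT NT it was -0.44, and -0.20 with a pseudocount of 5, -0.71 with a filter of 5 FPKM and -0.082 after median ratio scaling. For KO LPS against KO NT it was -0.44, and -0.21 with a pseudocount of 5 and -0.10 after median ratio scaling.

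Counts past 2-fold are small and moved with most settings. In the order KO LPS against WT LPS and KO NT against WT NT, members at least 2-fold higher were 5 and 4 with a pseudocount of 0.1, 0 and 0 with a pseudocount of 5, and 4 and 3 on CPM. A 1.5-fold rule gave 7 and 6, and a 3-fold rule 0 and 0. For KO LPS against KO NT and WT LPS against WT NT, members at least 2-fold lower were 7 and 5 with a pseudocount of 0.1, 0 and 0 with a pseudocount of 5, and 7 and 4 on CPM. A 1.5-fold rule gave 11 and 8, a 3-fold rule 0 and 0, and a filter of 5 FPKM 1 and 0. Median ratio scaling, and leaving out members under 50 counts, each gave 1 in KO, and equal sums gave 2 in WT.

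The summed level turned on Hmgb2, which has the highest mean count, before Smc4 and Smc2. For WT LPS against WT NT the ratio was 1.24, and 0.613 without Hmgb2, 0.570 without members of fractional counts and 0.671 without the 3 members of the highest mean count. After median ratio scaling with all members it was 1.73. For KO LPS against KO NT it was 0.996, and 0.629, 0.623 and 0.636 without the same members, and 1.34 after scaling. For KO LPS against WT LPS it was 1.16, and 1.46, 1.55 and 1.501 without them. For KO NT against WT NT it was 1.45, and 1.58 without the 3 members of the highest mean count. The settings without Hmgb2 were chosen after seeing the data. With a window from 150 bases before the start the members' promoter shares moved by less than their intervals, while those of all windows fell to 12.0% for a CHR of either form, 28.6% for CCAAT and 3.58% for both.

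Depth limits single members most. In WT LPS 9 of 32 members had under 10 counts, and with 1 library per group the spread between cultures is unknown. No paired analysis was possible because the groups share fewer than 2 replicate numbers. An additive fit of genotype and LPS, whose error would be the difference between the 2 genotypes' responses, was not run.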
